A study of Mus musculus with 6 samples.

Results

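The chaperonin genes described here are the 8 subunits of the cytosolic chaperonin CCT (Tcp1, Cct2, Cct3, Cct4, Cct5, Cct6a, Cct7 and Cct8) and the pair that forms the mitochondrial chaperonin (Hspd1 and Hspe1). They were chosen by name, as every probe set whose annotated symbol was exactly one of these 10. All 10 genes were measured, by 26 of the 20380 probe sets that name 1 gene, and they are 10 of 12393 genes tested. RNA came from wild-type mouse embryonic fibroblasts (MEFs), connective tissue cells grown from mouse embryos. Cells starved for 6 h gave 3 arrays and cells kept in normal medium gave 3 control arrays, each array a short-oligonucleotide array with 1 sample. The labels name no strain, no genotype other than wild type and no culture age, and they do not say which nutrients were withdrawn. They number biological replicates in each group but do not say that these were separate cultures, so p-values measure only the spread between these arrays, which may be technical. The comparison asks whether starvation for 6 h changed the messenger RNA of the protein-folding chambers.

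Chaperonins are barrel-shaped machines that take an unfolded protein into a closed cavity and use ATP to let it fold. CCT, also called TRiC, is built of stacked rings in which 8 related but different subunits sit side by side, and it is known above all for folding actin and tubulin. The mitochondrial chaperonin Hsp60, the product of Hspd1, forms rings of 1 kind of subunit, and its lid Hsp10 is the product of Hspe1. Hsp60 folds proteins after their import into the mitochondrial matrix.

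As deposited, the chaperonin genes did not all move in 1 direction, though the direction of Cct4 depended on the scaling of the arrays, described below. On the deposited scale Hspd1 (1.43-fold lower), Cct3 (1.34-fold lower), Tcp1 (1.25-fold lower) and Hspe1 (1.19-fold lower) fell in starved cells, Cct4 rose 1.15-fold, and Cct2, Cct5, Cct6a, Cct7 and Cct8 did not pass the test. The 5 called members compare with 44.1% of all genes called in either direction by limma with Benjamini-Hochberg adjustment, so the share is close to that of all genes, dim ones included. Lower calls numbered 4 of 10, against 22.0% of all genes, and higher calls 1 of 10, against 22.1%. All 10 members are bright. With the dimmest 40% of genes left out, the members had the same number of calls in each direction. Of the genes then tested, 29.7% were lower and 36.1% higher. The groups did not overlap for 7 of the 10 genes, against 54.0% of all genes. The median difference was −0.11 for the 10 members and −0.05 for all genes tested.

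The sequences upstream of the annotated starts are shown for 3 genes that fell and for Cct5, whose signal was nearly the same in both groups. They come from RefSeq (GRCm38.p6), read in the direction of the gene and ending at the last base before its start. The Hspe1 sequence lies at chr1:55087898-55088147 on the plus strand, Tcp1 at chr17:12916079-12916328 on the plus strand, Cct3 at chr3:88296885-88297134 on the plus strand and Cct5 at chr15:31601847-31602096 on the minus strand. Capitals mark matches to the motifs searched for, on either strand. Cct5 has another annotated start, whose sequence is not shown and held no such match.
Hspe1: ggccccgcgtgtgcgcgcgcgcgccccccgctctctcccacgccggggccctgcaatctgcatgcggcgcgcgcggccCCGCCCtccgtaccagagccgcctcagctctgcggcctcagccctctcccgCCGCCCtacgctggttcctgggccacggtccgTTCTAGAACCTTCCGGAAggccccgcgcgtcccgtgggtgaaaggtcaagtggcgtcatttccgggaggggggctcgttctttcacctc
Tcp1: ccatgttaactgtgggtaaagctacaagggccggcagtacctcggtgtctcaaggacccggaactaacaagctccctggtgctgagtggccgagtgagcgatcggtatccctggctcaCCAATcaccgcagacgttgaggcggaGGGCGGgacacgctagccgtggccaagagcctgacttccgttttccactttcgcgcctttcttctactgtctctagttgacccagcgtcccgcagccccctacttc
Cct3: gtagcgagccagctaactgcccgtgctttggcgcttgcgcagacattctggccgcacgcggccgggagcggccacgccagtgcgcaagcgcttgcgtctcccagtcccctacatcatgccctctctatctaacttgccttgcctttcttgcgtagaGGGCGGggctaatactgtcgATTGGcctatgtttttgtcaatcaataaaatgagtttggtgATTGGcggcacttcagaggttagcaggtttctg
Cct5: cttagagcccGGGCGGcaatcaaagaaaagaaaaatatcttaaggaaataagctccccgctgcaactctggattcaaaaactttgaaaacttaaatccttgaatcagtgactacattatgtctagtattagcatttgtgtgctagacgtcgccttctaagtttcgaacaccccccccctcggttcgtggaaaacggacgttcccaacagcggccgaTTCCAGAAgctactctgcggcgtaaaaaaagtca

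The Hspe1 sequence holds an unbroken run of overlapping heat shock units, the paired sites at which the heat shock factor HSF1 is known to bind. Its 3 units start 89, 84 and 79 bases before the Hspe1 start. Hspd1 runs the other way from the same place: the gene spans of Hspd1 (chr1:55077833-55088243) and Hspe1 (chr1:55088148-55091317) share 96 bases, and the same run of units lies upstream of a second annotated Hspd1 start. A heat shock unit, searched as GAANNTTC or TTCNNGAA, was found in 5 of the 12 member windows, against 15.1% of the windows of all genes. They belong to 5 of the 9 members that had a window in the RefSeq table (Cct2, Cct5, Cct6a, Hspd1 and Hspe1). Those of Hspd1 and Hspe1 hold the same run of units. A window runs from 250 bases before to 50 after a start, and a gene can have several. The windows of Tcp1, Cct3, Cct7 and Cct8 held no heat shock unit. The E-box CACGTG was found in 1 of the 12 member windows, a window of Hspd1, against 7.15% of all windows. The amino acid response motif TGATGNAA was found in 0 of the 12 member windows, against 3.97% of all windows. CCAAT, marked in the sequences of Tcp1 and Cct3, was found in 5 of the 12 member windows (5 members), against 37.4% of all windows. The GC box GGGCGG was found in 11 of the 12 member windows (all 9 members), against 35.7% of all windows. These are matches of letters and show no binding.

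Tcp1 encodes the alpha subunit, the first CCT subunit to be named. Its log2 signals were 12.18, 12.16 and 12.16 in starved arrays, against 12.56, 12.47 and 12.45 in control arrays. Every starved array lay below every control array. The difference (starved minus control, log2) was −0.33 (SE 0.07, limma adjusted p = 0.00299), and it passed the test without each array in turn. For these bulk samples, fewer cells that express a gene and less of its RNA per cell cannot be told apart.

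Cct3 encodes the gamma subunit. It read 11.23, 11.22 and 11.20 in starved arrays, against 11.73, 11.59 and 11.60 in control arrays. The starved arrays lay close together and all below the controls. The difference was −0.42 (SE 0.07, limma adjusted p = 0.000779), lower than that of all but 9.82% of genes, and the call held without each array in turn.

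Cct4, the delta subunit, went the other way. Its signals were 12.19, 12.21 and 12.21 in starved arrays, against 12.03, 11.97 and 12 in control arrays, again with no overlap. The difference was 0.20 (SE 0.065, limma adjusted p = 0.029). This call was the least secure of the 5. It was lost without control replicate 1 (adjusted p = 0.0611), control replicate 2 (adjusted p = 0.103), control replicate 3 (adjusted p = 0.0786) or starved replicate 2 (adjusted p = 0.0613), and with the mean of the gene's 6 probe sets (0.10, adjusted p = 0.375).

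The other 5 CCT subunits did not pass the test. Cct5, the epsilon subunit, had 12.55, 12.51 and 12.51 in starved arrays and 12.52, 12.50 and 12.55 in control arrays. The arrays were interleaved, and the 95% confidence interval of the difference ran from −0.15 to 0.14. Cct2, the beta subunit, had 12.65, 12.68 and 12.69 in starved arrays and 12.58, 12.63 and 12.60 in control arrays. All 3 starved arrays lay above the controls, by little, and the interval of the difference (0.07) ran from −0.08 to 0.21. Cct6a, the zeta subunit of most tissues, had 11.676, 11.63 and 11.64 in starved arrays and 11.684, 11.72 and 11.73 in control arrays. All its starved arrays lay below the controls, by little, with a difference of −0.06 and an interval from −0.21 to 0.08. Cct7, the eta subunit, averaged 12.08 ± 0.04 in starved and 12.001 ± 0.04 in control arrays (SD, n = 3 each), and the interval of the difference ran from −0.07 to 0.23. Cct8, the theta subunit, was the most variable member. It had 11.48, 11.28 and 11.49 in starved arrays, against 11.67, 11.47 and 11.58 in control arrays, and its groups overlapped. Its difference of −0.16 had an interval from −0.35 to 0.04, so a fall as large as that of Tcp1 lies inside it.

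The subunits thus spread over a range. Their differences spanned 0.62 on the log2 scale, between −0.42 for Cct3 and 0.20 for Cct4, with a median of −0.03. The spread does not depend on how an array is scaled as a whole, because a shift of an array moves all subunits alike. The log2 ratio of the Cct3 signal to the Cct4 signal was −0.96, −0.98 and −1.01 in starved arrays, against −0.31, −0.37 and −0.40 in control arrays. That of Tcp1 to Cct4 was −0.01, −0.05 and −0.05 in starved arrays, against 0.53, 0.50 and 0.45 in control arrays. These ratios compare probe sets of unlike brightness, so their change between groups can be read and their size cannot. The pairs were picked for their contrast after the values were seen, and no test is given.

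**Figure D1:**
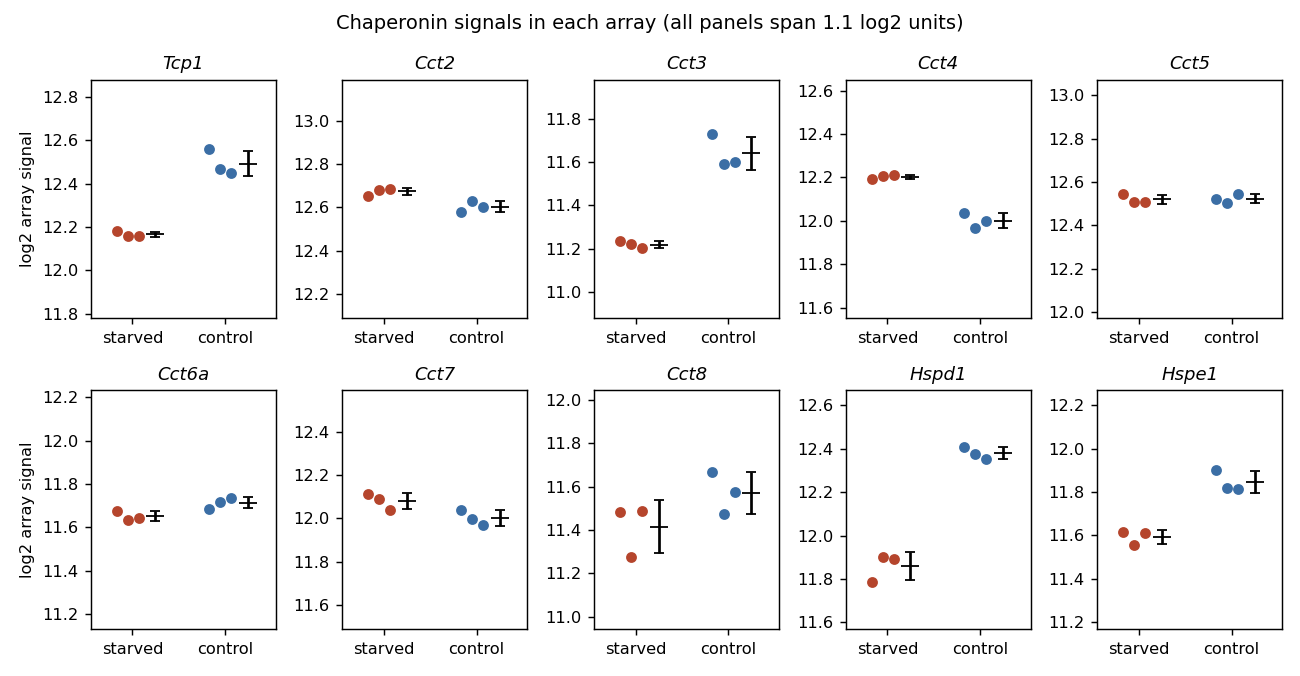
Log2 array signal of each chaperonin gene in the 3 starved and 3 control arrays (points), with the mean and SD of each group (bars) and every panel spanning the same 1.1 log2 units. Starved arrays lie clear below control arrays for Tcp1, Cct3, Hspd1 and Hspe1 and above them for Cct4, while those of Cct5 are mixed with the controls.

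Both genes of the mitochondrial chaperonin fell. Hspd1, the folding chamber Hsp60, read 11.78, 11.90 and 11.89 in starved arrays, against 12.41, 12.38 and 12.35 in control arrays. The gap between the groups was wider than the spread within either. Its difference of −0.52 (SE 0.07, limma adjusted p = 0.000183) was the largest of the 10 members, lower than that of all but 7.02% of genes. Hspe1, the lid Hsp10, had 11.61, 11.55 and 11.61 in starved arrays, against 11.90, 11.82 and 11.81 in control arrays. The groups were again apart, with a difference of −0.25 (SE 0.07, limma adjusted p = 0.0124). The Hspe1 call was lost without control replicate 1 (−0.22, adjusted p = 0.06), and that of Hspd1 held without each array.

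Most members have several probe sets, and these mostly told the same story. In a fit of every probe set on its own, 9 of the 26 were lower (against 20.5% of all such probe sets), 2 were higher (against 20.4%) and 15 did not pass. Of the 6 probe sets of Cct3, 5 were lower, with differences from −0.59 to −0.38, and the sixth, dim at 4.43 in starved and 4.67 in control arrays, lay at −0.24 (adjusted p = 0.188). For Cct4, 2 of 6 were higher (0.20, adjusted p = 0.0368, and 0.23, adjusted p = 0.0495). Of its other 4, 3 lay between 0.11 and 0.19 and 1 lay at −0.24, none of them called. The probe sets at 0.11 and at −0.24 were both dim. Both probe sets of Hspe1 were lower (−0.25 and −0.35). The 3 of Cct2 lay between 0.01 and 0.11, the 2 of Cct7 at 0.08 and 0.13, the 2 of Cct6a at −0.06 and 0.03, and the 2 of Cct8 at −0.16 and, for a dim one, −0.03, with no call. Tcp1, Cct5 and Hspd1 had 1 probe set each, so no second reading of these genes exists here. Names that end in _x_at or _s_at mark probe sets that can bind other transcripts. The brightest ones of Cct2, Cct3 and Hspe1, used for the gene values, are of this kind, and with such probe sets left out Cct3 and Hspe1 stayed lower (−0.45 and −0.35, both called) and Cct2 was not called (0.11). Of the called Cct3 probe sets only that at −0.45 is not of this kind. The called Cct4 probe set at 0.23 is of this kind, as are those between 0.11 and 0.19. The Cct4 probe sets not of this kind lay on both sides of 0, at 0.20 (called) and −0.24 (dim, not called).

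**Figure D2:**
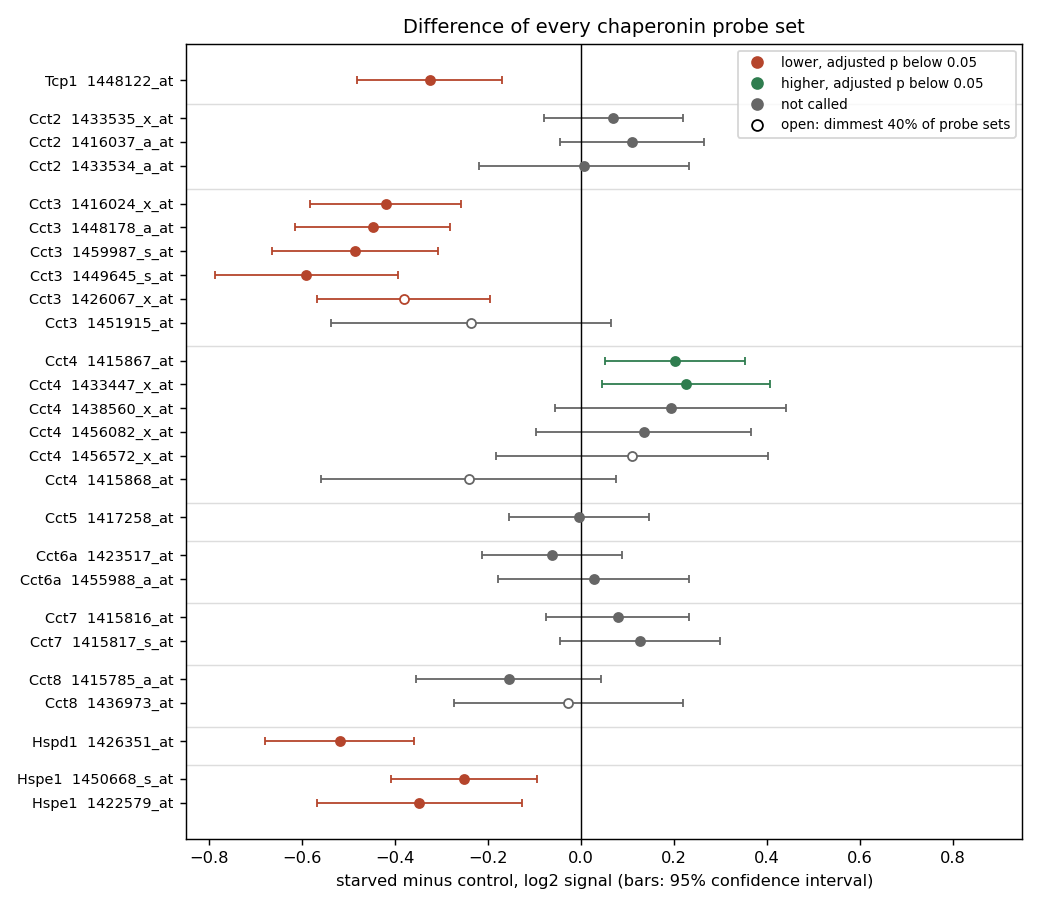
Difference between starved and control arrays (log2, starved minus control) for each of the 26 chaperonin probe sets, with 95% confidence intervals; red marks lower, green higher and grey uncalled probe sets, and open points are among the dimmest 40%. The Cct3 probe sets lie to the left of 0, from −0.59 to −0.24, and 5 of the 6 for Cct4 lie to the right, from 0.11 to 0.23.

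How far the members lay below 0 depended on the scaling of the arrays, since the deposited values were normalized to nearly the same signal distribution in each array. RNA spike-ins were brighter in starved arrays. The mean of the 24 poly-A spike-in probe sets was 7.82, 7.96 and 7.76 in starved arrays, against 7.42, 7.43 and 7.41 in control arrays. With each array centred on these, 0.43 comes off every difference, and all 10 members were lower, against 75.2% of all genes. Cct4 then lay at −0.22 (adjusted p = 0.0455), Cct2 at −0.36, Cct7 at −0.35 and Hspd1 at −0.95. With centring on the hybridization spike-ins, which takes off 0.19, 6 members were lower, against 49.2% of all genes. Cct6a (−0.25) and Cct8 (−0.34) joined Tcp1, Cct3, Hspd1 and Hspe1, and Cct4 lay at 0.01. With centring on each array's median 4 members were lower, against 27.1% of all genes, and the Cct4 call was lost (0.16, adjusted p = 0.0891). Each of these centrings lowers every difference, so they are no check on the lower calls. Of all called genes 50.1% were higher as deposited, 41.9% with median, 21.5% with hybridization and 8.45% with poly-A centring. A spike-in shift is a shared uncertain value per array, so calls under it are not separate evidence for each gene.

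**Figure D3:**
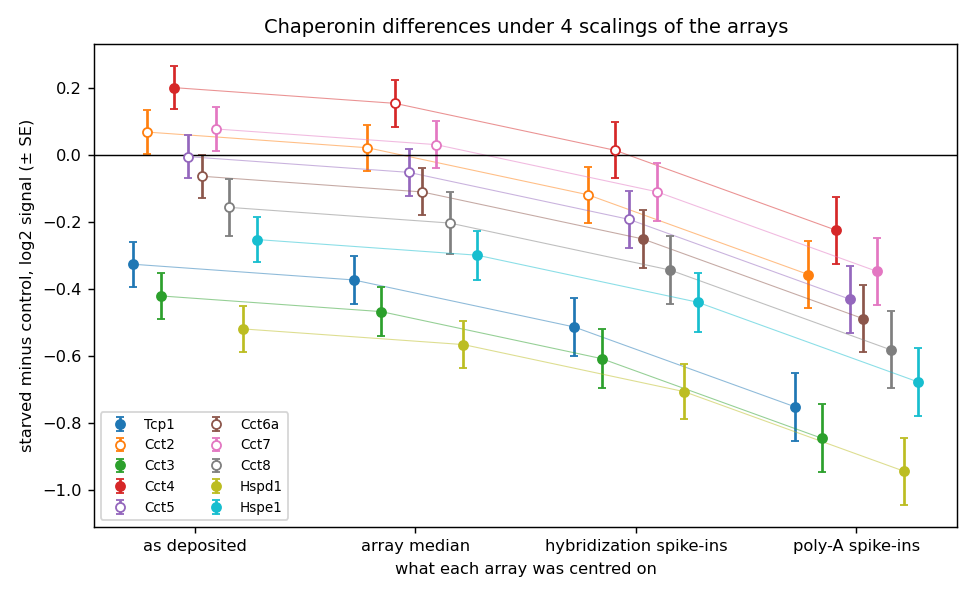
Difference of each chaperonin gene (log2, starved minus control, ± SE) with the arrays as deposited and centred on the array median, the hybridization spike-ins or the poly-A spike-ins; filled points passed the adjusted p of 0.05. The order of the genes stays the same, with Hspd1 lowest (−0.52 as deposited, −0.95 with poly-A centring) and Cct4 highest (0.20 and −0.22).

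Partners of CCT were mixed. Prefoldin, the complex that hands unfolded actin and tubulin to CCT, had 5 measured subunits. Pfdn6 (−0.27, adjusted p = 0.0132) and Pfdn2 (−0.23, adjusted p = 0.0213) fell, Vbp1 rose (0.25, adjusted p = 0.0361), and Pfdn1 (−0.09) and Pfdn5 (0.05) did not pass. Without control replicate 1 none of these 3 calls held. Pfdn2 also lost its call without control replicate 2 or starved replicate 2. The rise of Vbp1 was lost in 7 settings and turned to −0.18 with poly-A centring. Of 4 phosducin-like and thioredoxin-like proteins that bind CCT, Pdcl rose (0.29, adjusted p = 0.0403, not called in 11 of 16 other settings and −0.14 with poly-A centring) and Pdcl2, Pdcl3 and Txndc9 did not pass. Of 5 tubulin cofactors, which join tubulin subunits after CCT releases them, Tbcc fell (−0.76, adjusted p = 0.000113), Tbcd fell (−0.24, adjusted p = 0.0133, not called by its other probe set at −0.09) and 3 did not pass. Over these 14 genes 2 rose and 4 fell as deposited, with 22.1% of all genes higher and 22.0% lower, and with poly-A centring 0 were higher and 12 lower, with 75.2% of all genes lower. Mkks, a CCT-like protein of the chaperonin complex that assembles the BBSome, fell by 0.33 (adjusted p = 0.00842), and the CCT zeta paralogue Cct6b, dim at 4.25 in starved and 4.34 in control arrays, did not pass.

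Known clients of CCT were mixed too. Of 18 measured substrates 7 rose and 1 fell, against 22.1% of all genes higher and 22.0% lower, and the median difference was 0.12. With poly-A centring 2 were higher and 11 lower, against 6.94% of all genes higher and 75.2% lower, and the median was −0.30. The mitotic kinase Plk1 rose by 0.68 (adjusted p = 8.85e-05) and the mitotic activator Cdc20 by 0.67 (adjusted p = 9.43e-05). Cyclin E1, Ccne1, fell by 1.45 (adjusted p = 3.24e-06). The 6 measured tubulins, named after their values were seen, were mixed: Tubb5 rose by 0.33, Tubb4b by 0.35 and Tubb2a by 0.54, while Tuba1a (0.11), Tubb6 (−0.09) and Tubg1 (−0.03) did not pass. With poly-A centring none of these 3 calls held (Tubb5 −0.10, Tubb4b −0.08, Tubb2a 0.11). Those of Tubb5 (0.14) and Tubb4b (0.16) were also lost with hybridization centring, and that of Tubb4b with the mean of its probe sets. Tubb2a lost its call also without the probe sets that can bind other transcripts (0.09). The actins Actb (−0.07) and Actg1 (−0.04), also named afterwards, did not pass on the deposited scale and were called lower with either spike-in centring.

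Among genes that work beside the mitochondrial chaperonin, lower calls outnumbered higher ones. Of 7 other chaperones of the matrix, 5 fell and none of the other 2 passed; the median difference was −0.30. Dnaja3, a J-domain partner of mitochondrial Hsp70, fell by 0.77 (adjusted p = 1.18e-05) and Dnlz, which keeps that Hsp70 soluble, by 0.93 (adjusted p = 4.53e-05). The Hsp70 itself, Hspa9, named after its values were seen, had 11.59, 11.65 and 11.81 in starved arrays, against 12.22, 12.14 and 12.14 in control arrays. Its difference of −0.48 (adjusted p = 0.000628) was close in size to that of Hspd1, and a dim probe set of Hspa9 lay at 0.04 without a call. Its exchange factors Grpel1 and Grpel2, also named afterwards, fell by 0.30 each, while Trap1 (−0.17) and Hscb (−0.04) did not pass. Of 8 mitochondrial proteases 5 fell and 3 did not pass. Lonp1, the matrix protease that degrades damaged proteins, fell by 0.64 (adjusted p = 5.23e-05), and Clpp, the chamber of the ClpXP protease, by 0.60 (adjusted p = 0.000227).

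The import machinery delivers the clients of Hsp60. Of 19 measured genes 15 fell and 0 rose, and the median difference was −0.47. Timm8a1, a small carrier of the space between the membranes, had 8.44, 8.34 and 8.39 in starved arrays, against 9.57, 9.58 and 9.59 in control arrays. It fell by 1.19 (adjusted p = 7.19e-07). Timm22, the channel for carrier proteins of the inner membrane, fell by 0.86 (adjusted p = 5.72e-06), though its dimmer probe set did not pass (−0.31, adjusted p = 0.072). These counts are given beside 22.0% of all genes lower and 22.1% higher, and the lists were chosen with earlier results of these arrays known.

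**Figure D4:**
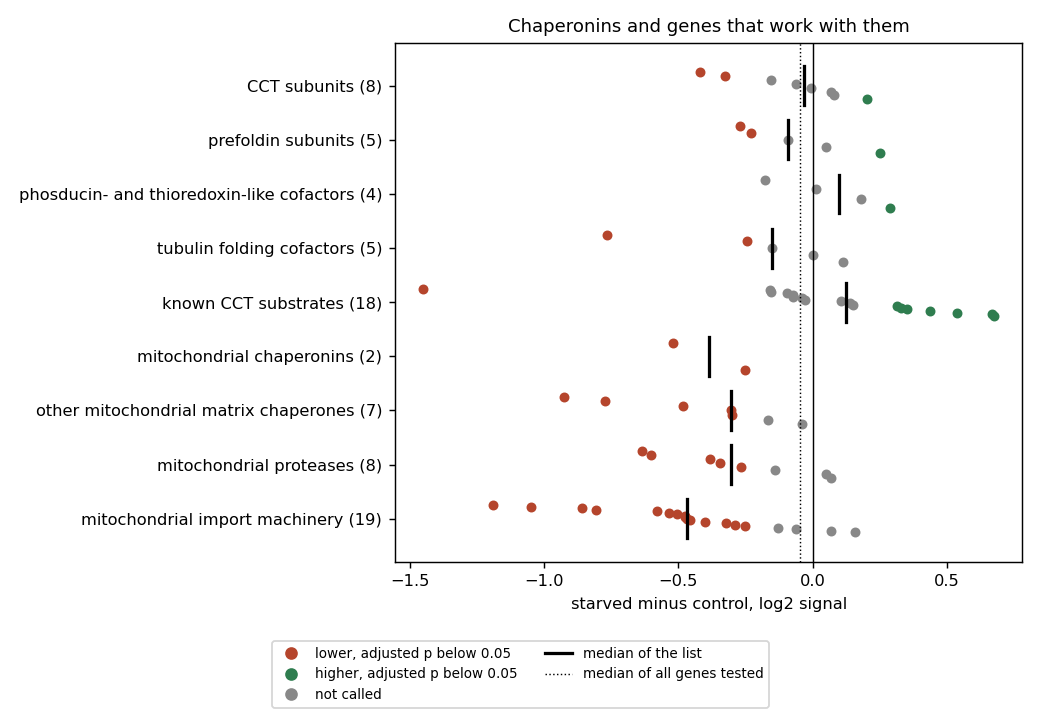
Differences (log2, starved minus control) of the chaperonin genes and of genes that work with them, 1 point per gene, with the median of each list (black bar), the median of all genes tested (dotted line at −0.05) and the number measured in brackets. CCT subunits and their cofactors lie on both sides of 0, and most mitochondrial genes lie to the left, with a median of −0.47 for the import machinery.

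Of 6 regulators that have been linked to chaperonin transcription 5 were measured here, and Hsf1 was not among them. Myc, which is known to raise Hspd1 transcription, read 8.39, 8.34 and 8.34 in starved arrays, against 9.21, 9.10 and 9.23 in control arrays. It fell by 0.83 (adjusted p = 9.49e-06). Ddit3 (CHOP) and Cebpb, which have been linked to induction of Hspd1 under mitochondrial stress, fell by 0.66 (adjusted p = 0.000102) and 0.60 (adjusted p = 7.30e-05). Atf5, another factor of that response, averaged 11.27 ± 0.16 in starved and 11.26 ± 0.03 in control arrays (SD, n = 3 each) and did not pass, nor did Hsf2, dim at 3.80 in starved and 3.91 in control arrays. Their part in the changes of the chaperonin genes was not tested.

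The 3 brightest fibroblast markers were among the bright genes of the arrays. The collagen gene Col1a2 averaged 14.16 in starved and 14.03 in control arrays, the filament gene Vim 14.13 in starved and 13.93 in control arrays, and the matrix gene Fn1 13.54 in starved and 13.02 in control arrays. Over all 11 fibroblast markers the mean level lay between 11.29 and 11.32 in starved and between 11.02 and 11.11 in control arrays, and 7 rose and 2 fell. With hybridization centring 4 of these 11 were higher and 3 lower, and with poly-A centring 1 was higher and 5 lower. The fibroblast markers Lum, at 7.19 in starved and 7.37 in control arrays, and Thy1, at 4.597 in starved and 4.99 in control arrays, were dimmer than the brightest marker of another cell type, which averaged 7.52 over all arrays. Of 19 markers of other cell types 2 rose and 4 fell as deposited, against 1 higher and 12 lower with hybridization centring and 1 higher and 17 lower with poly-A centring. Of all genes 22.1% were higher and 22.0% lower as deposited. With hybridization centring 13.5% of all genes were higher and 49.2% lower, and with poly-A centring 6.94% and 75.2%. The part of these markers of other cell types in the chaperonin results was not tested. The mean level of 8 macrophage and blood cell markers lay between 4.86 and 5.01 in starved and between 4.97 and 5.05 in control arrays, that of 6 epithelial markers between 4.22 and 4.26 in starved and between 4.21 and 4.23 in control arrays, and that of 5 endothelial markers between 3.69 and 3.77 in starved and between 3.83 and 3.89 in control arrays. The epithelial mean hides a rise of Cdh1, dim at 4.36 in starved and 3.44 in control arrays (0.91, limma adjusted p = 6.14e-05). The other 5 epithelial markers lay below 0 and did not pass. Array medians lay between 6.73 and 6.81, and no array stood apart, with a correlation across genes of at least 0.997 between arrays of a group and of at most 0.984 between groups. Array signals hold no read depth, and the number of arrays limits the precision.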

How the data were processed

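RNA of starved and control fibroblasts was measured on 6 arrays. The authors deposited 1 log2 signal per probe set and array, made with affy and RMA per the submitters' processing notes, which give no versions. The RMA method corrects background, quantile-normalizes arrays and summarises probes, which removes changes in total RNA per cell and compresses dim genes. Of 22690 probe sets, 20380 had 1 gene in the platform annotation, 691 several, 1555 none listed and 64 were array controls. The first kind was used, with the brightest probe set over all arrays for each of 12393 genes and no filter on dim ones. The 10 members matched RefSeq gene IDs (GRCm38.p6), and 9 had upstream sequence.

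Groups came from sample titles. Differences were fitted with limma 3.58.1 in R 4.3.3 (lmFit, eBayes, two-sided, no covariate) on all genes, and in a second fit on all single-gene probe sets, with Benjamini-Hochberg adjustment over each and a threshold of 0.05. The limma fit alone was tested on simulated data, in which far fewer genes changed than were called here. Python 3.11.15, pandas 2.3.3 and matplotlib 3.10.9 handled sequences and plots. Alternatives changed the probe set rule, dim filter, scaling, variance model, array weights, replicate block, threshold and arrays used. The members, gene lists, tests and alternatives were chosen with earlier results of these data known. Named were all members and, from each list other than the cell type markers, up to 2 called genes per direction with the smallest adjusted p, unless stated otherwise. Genes of lists of 6 or fewer could all be named, though not all were. Of the cell type markers, the 3 brightest of fibroblasts were named by rule, and Lum, Thy1 and Cdh1 after their values were seen.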

Additional observations from a re-analysis of the deposited data

How the results depend on the processing

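At an adjusted p of 0.05, the calls of Tcp1, Cct3 and Hspd1 held in 16 alternative settings, that of Hspe1 in 15 and that of Cct4 in 7. Among these settings are the centrings, which lower every difference and so are no check on the lower calls. Tcp1 and Hspd1 have only 1 probe set each, so the probe set rules could not change their differences. The stricter tests given below are not among the 16. Scaling moved the values most: the median difference of the CCT subunits was −0.0803 with median centring, −0.22 with hybridization spike-ins and −0.46 with poly-A spike-ins, and that of all 10 members −0.16, −0.30 and −0.54 in the same order. With poly-A centring 10 genes and 23 probe sets were called, all lower, against 75.2% of all genes and 73.8% of all probe sets lower. Cct2 turned to −0.12 with hybridization and −0.36 with poly-A centring, Cct7 to −0.11 and −0.35, and Cct4 to −0.22 with poly-A centring. Centring subtracts a constant per array, which makes these shifts; the cause of the spike-in difference was not tested. The mean of each gene's probe sets gave a median of −0.0547 over the members. Without the probe sets ending in _s_at or _x_at, 5 of 15 member probe sets were called, 1 higher and 4 lower. Of all probe sets then tested 20.1% were higher and 20.1% lower. Stricter tests ended more calls. An adjusted p below 0.01 left 3 member genes (14.4% of all genes lower and 17.3% higher) and 7 probe sets (13.2% of all probe sets lower and 15.2% higher). A test against a fold change of 1.2 left 1 gene (7.58% of all genes lower and 10.6% higher) and 2 probe sets (7.46% of all probe sets lower and 9.68% higher).

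Leaving out 1 array at a time gave 3 to 5 called genes (3 without control replicate 1), and a median over the members between −0.13 and −0.07. Between 17.6% and 22.1% of all genes were then lower, and between 19% and 22.2% higher. Cct5 lay between −0.0168 and 0.0075. With the replicate number as a block, 4 members were lower and 0 higher (21% of all genes lower and 21.5% higher), and Cct4 kept 0.20 with adjusted p = 0.0535. Same-numbered arrays did not deviate together (correlations −0.005, −0.02 and 0.002). So few arrays cannot show whether they shared a culture or batch, which the labels do not say. Another scale of the deposited values was not run, since they are already log2. The small number of arrays and the weak signal of 5 dim member probe sets limit precision.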
